A study of Mus musculus with 6 samples.

Results

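The genes described here encode the proteins of the cytosolic ribosome. They were chosen by name, as every gene whose symbol is Rpl, Rplp or Rps followed by a number and at most 1 of the letters a, l, x and y, which leaves out the Rps6k kinases, the pseudogene names and the mitochondrial ribosomal proteins. The platform annotation gave 210 probe sets with 1 such symbol, for 58 of the 19938 genes measured, and each gene was represented by its brightest probe set over all arrays. Of the 58 genes, 37 belong to the large (60S) subunit and 21 to the small (40S) subunit. RefSeq holds 82 symbols of this form, and the other 24, of which 16 occur in probe sets shared with further symbols, are not analysed here. They include Rpl11, Rpl35a, Rps24 and Rps26.

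RNA was measured in long-term hematopoietic stem cells (LT-HSCs), the marrow cells that sustain blood formation, from WT mice and from Lxn-/- mice, in which exons 2 to 4 of the latexin gene (Lxn) are deleted. All mice were C57BL/6 females aged 8 to 12 weeks. The cells had been sorted from bone marrow as lineage negative, Sca1 and c-Kit positive, and negative for CD34 and Flt2, as the labels spell it. There were 3 pools per genotype, each of about 100000 cells from 10 to 20 mice and hybridised to 1 Affymetrix mouse Gene ST array, and the series asked which genes are expressed differently when latexin is absent. Values are log2 signals normalized by robust multi-array average (RMA), so a difference of 1 is 2-fold. All p-values measure the spread between pools.

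Ribosomal proteins are made in equal numbers and joined to ribosomal RNA in the nucleolus. Their mRNAs are among the most abundant of a cell and commonly begin with a stretch of pyrimidines, the 5′ terminal oligopyrimidine (TOP) tract, through which mTOR and the protein LARP1 set their translation. In the blood system a low dose of single ribosomal proteins causes Diamond-Blackfan anemia, and hematopoietic stem cells are known to make protein slowly and to tolerate changes in its rate poorly.

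Several members share features of their start sites. In RefSeq (build GRCm38.p6) 46 of the 58 genes had an entry, with 55 annotated starts. A run of at least 8 C or T bases lay within 20 bases of a start in 20 of the 46 genes (43.5%), against 18.5% of the 15614 measured genes with an entry. The letters CGGAAG, the core of the binding motif of ETS factors such as GABPA, were present on either strand of the 300 bases around a start in 31 of the 46 genes (67.4%), against 24.7%. By subunit the letters were in 17 of 29 large-subunit genes (58.6%) and 14 of 17 small-subunit genes (82.4%), and in 38 of 68 genes of mitochondrial ribosomal proteins (55.9%). TATAAA was found in the 50 bases before a start in 0 of the 46 genes, against 3.46%. These are matches of letters and do not show that a factor binds. The start sites of 7 genes named further on are shown to make the tract visible, 4 of them with a long run that reaches or lies close to the start and 1 with a run farther upstream. The last 2 have no such run. Each stretch has the 20 bases before the annotated start and the first 10 of the transcript, on the gene's own strand, with the longest pyrimidine run in capitals.
Rps6 (chr4:86857358-86857387, minus strand): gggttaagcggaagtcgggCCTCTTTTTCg
Rpl14 (chr9:120571497-120571526, plus strand): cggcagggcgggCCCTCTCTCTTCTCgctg
Rpl27a (chr7:109519175-109519204, plus strand): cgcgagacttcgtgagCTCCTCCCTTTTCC
Rpl4 (chr9:64173367-64173396, plus strand): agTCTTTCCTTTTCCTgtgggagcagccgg
Rpl5 (chr5:107900508-107900537, plus strand): CTCTTTCTCacgtcgcttgcgtgctggtgg
Rpl9 (chr5:65391422-65391451, minus strand): gcgacacgcagggCCCTgacggattacaag
Rps13 (chr7:116334181-116334210, minus strand): cgcgcgagagcaaacgTCggtgagtggcgt

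The members were bright in both genotypes. The mean signal was above 12 for 42 of the 58 genes (72.4%), against 2.45% of all genes, and 32 members stood among the brightest 1% of genes. Signals of different probe sets do not rank the abundance of different mRNAs, so levels are compared here only within a gene. The dimmest members were Rpl39l and Rpl3l, at 5.05 and 6.45, and Rpl10l, at 6.81, the only members below 6.93, the 95th percentile of 1210 probe sets for odorant and pheromone receptors, which served as a level for genes with no known role in these cells. Within a genotype the median SD of a member was 0.078, against 0.10 for all genes.

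**Figure D1:**
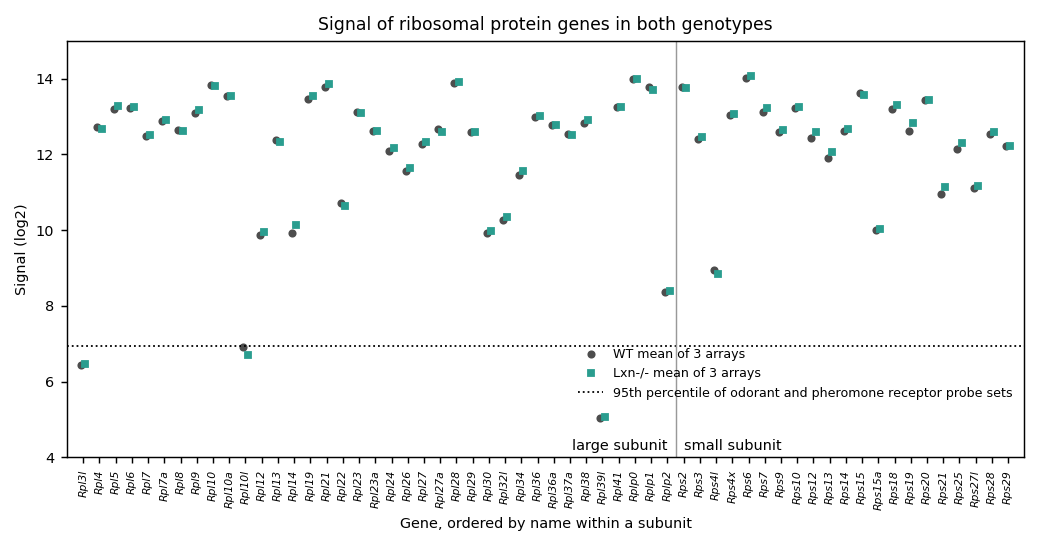
Mean log2 signal of each of the 58 genes over 3 WT arrays (circles) and 3 Lxn-/- arrays (squares), by subunit and name, with the 95th percentile of receptor probe sets as a dotted line. The 2 genotype means lie close together for every gene, and 3 large-subunit paralogs lie below the line.

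No ribosomal protein gene could be called different between Lxn-/- and WT cells. In limma, with Benjamini-Hochberg adjustment over 23410 probe sets, 0 of the 58 passed an adjusted p of 0.05, as did 0% of all probe sets, and the adjusted p of the members ran from 0.993 to 0.999. At an unadjusted p under 0.05 there were 0 members, where 3.76% of all genes had one (1.28% higher and 2.47% lower in Lxn-/-). The differences, Lxn-/- minus WT, ran from -0.21 to 0.22 on the log2 scale. The median half-width of their 95% confidence intervals was 0.17, and the whole interval lay within 0.25 of 0 for 42 members and within 0.5 for 55.

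The members were on balance slightly higher in Lxn-/- arrays. The difference was above 0 for 42 of 58 (72.4%), against 44% of all genes, with a median of 0.031 against -0.013. This describes 6 pools and was not tested, because the genes were chosen with results of these arrays known. For 4 members all 3 values of a genotype lay on 1 side of the other's, 3 of them higher in Lxn-/- (5.17%, against 3.3% of all genes) and 1 lower (1.72%, against 5.49%). Without WT replicate 3 the count higher was 36 (62.1%, against 46.9% of all genes) and the median 0.014. Without Lxn-/- replicate 2 the count was also 36 (62.1%, against 46.6%), with a median of 0.025. With any other array left out it was 37 to 43, where 42.1% to 45.9% of all genes were higher.

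**Figure D2:**
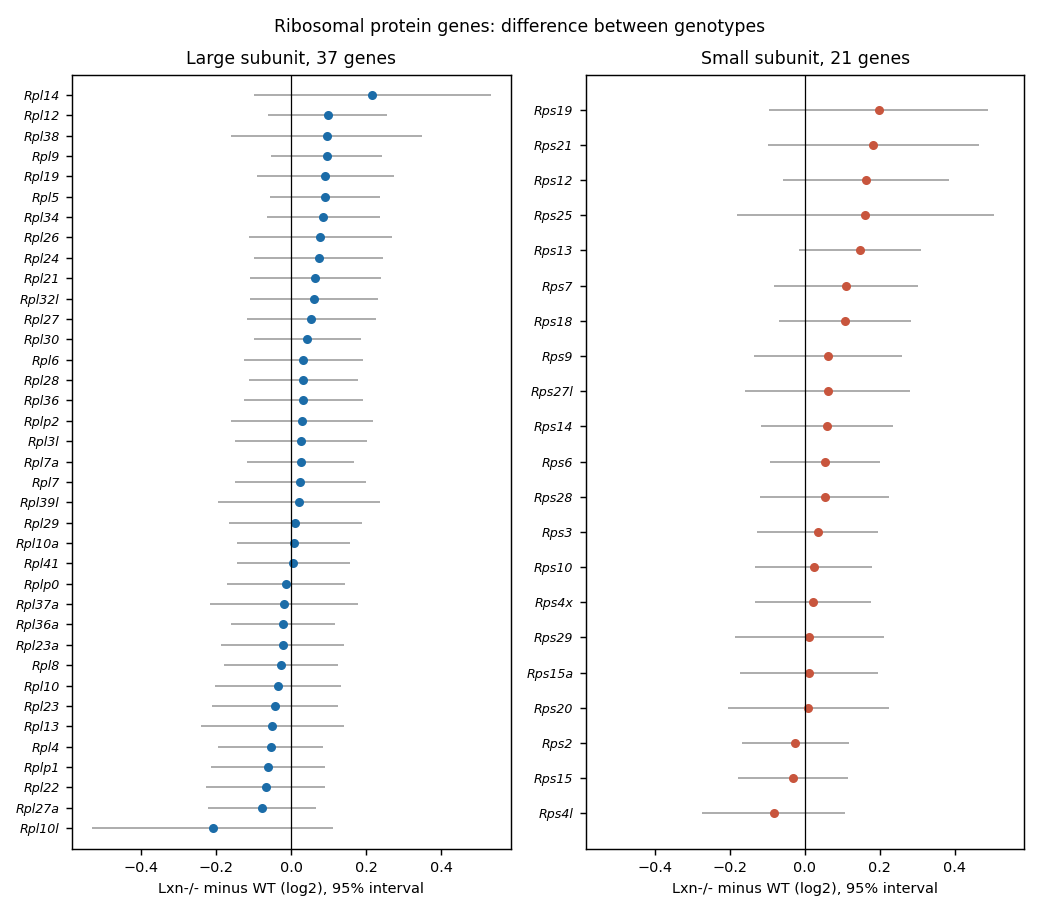
Difference of each gene, Lxn-/- minus WT in log2 units (points), with limma's 95% confidence interval (lines), for 37 large-subunit and 21 small-subunit genes. Every interval includes 0, and points lie right of 0 for 24 large-subunit and 18 small-subunit genes.

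Small-subunit genes had a larger median difference than large-subunit genes, by less than the spread between arrays. Of the 21 small-subunit genes 18 were higher in Lxn-/- (85.7%), with a median of 0.053. Of the 37 large-subunit genes 24 were higher (64.9%), with a median of 0.026. The gap between the medians, large minus small, was -0.027. As a mean over its genes, each gene taken from its own mean of 6 arrays, the small subunit stood at 0.013, -0.0046 and -0.10 in WT and at 0.067, 0.051 and -0.023 in Lxn-/-, in the order of the replicate numbers, as for all values listed from here on. WT replicate 3 was thus low, and Lxn-/- replicate 3 lay below WT replicates 1 and 2, so the genotypes overlap. The large subunit stood at -0.0037, -0.018 and -0.0067 in WT and at 0.018, 0.021 and -0.011 in Lxn-/-, also with overlap and in a narrower range. WT replicate 3 held the lowest of the 6 values for 13 of the 21 small-subunit genes and for 10 of the 37 large-subunit genes.

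Single arrays moved these medians. Without WT replicate 3 the small-subunit median was 0.015, with 13 of 21 genes higher, the large-subunit median was 0.013, with 23 of 37 higher, and the gap was -0.0025. Without Lxn-/- replicate 1 the small-subunit median was 0.033 and the large-subunit median 0.014, with a gap of -0.019. Without Lxn-/- replicate 2 the large-subunit median was 0.0052 and the gap -0.042. The gap was -0.051 without WT replicate 1, and in none of the 6 leave-one-out fits did it turn positive.

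**Figure D3:**
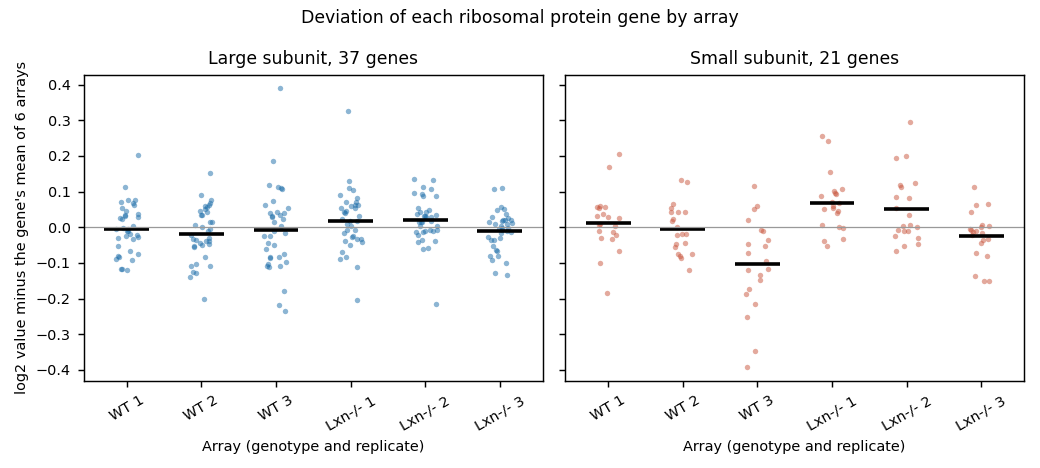
Each point is 1 gene on 1 array, as its log2 value minus the gene's mean over 6 arrays, and the black bar is the mean over the genes of a subunit. Small-subunit genes sit lowest on WT replicate 3, with a mean of -0.10, while the large-subunit means stay between -0.018 and 0.021.

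Markers of other cells also varied between arrays, and their part in the result was not tested. Summed log2 signals of 14 neutrophil markers were 152.7, 145.3 and 125.9 in WT and 147.9, 133.1 and 157.7 in Lxn-/-. WT replicate 3 was lowest and Lxn-/- replicate 2 next. The small-subunit means of these arrays were -0.10 and 0.051. Not every neutrophil marker followed the sums. Elane had 13.24 in Lxn-/- replicate 2 and 12.59 in Lxn-/- replicate 3, and Mpo had 13.59 and 13.34. Prtn3 and Cebpe were also lower in Lxn-/- replicate 3 than in Lxn-/- replicate 2. For 10 erythroid markers the sums were 99.9, 101.3 and 105.2 in WT and 98.9, 102.6 and 97.1 in Lxn-/-. For 19 mitosis genes they were 201.4, 204.1 and 207.0 in WT and 200.8, 204.8 and 197.3 in Lxn-/-. In both lists WT replicate 3 was highest and Lxn-/- replicate 2 next. Sums of 15 B and plasma cell markers were 152.8 to 159.4 in WT and 149.6 to 151.9 in Lxn-/-, without overlap, and all 15 were lower in Lxn-/-. All 10 erythroid markers and all 19 mitosis genes were lower too, where 44% of all genes were higher. Sums of 11 T and NK cell markers were 90.5, 89.9 and 93.7 in WT and 89.9, 97.9 and 88.6 in Lxn-/-, highest in Lxn-/- replicate 2. All markers of these lists were above the receptor percentile except 1 of the T and NK cell list. In such pools, fewer cells of a type cannot be told apart from less RNA per cell. All 12 measured LT-HSC markers, among them Kit, Procr, Mecom and Hlf, were above that percentile. Cd34, whose protein the gate excluded, was also bright, with 13.12 in WT and 13.18 in Lxn-/-. Flt3 had 11.93 in WT and 11.99 in Lxn-/-, though the labels spell the marker of the gate Flt2.

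Among small-subunit genes, Rps13 had the lowest unadjusted p of all members. Its signals were 11.87, 11.98 and 11.86 in WT and 12.08, 12.10 and 11.97 in Lxn-/-, so the lowest Lxn-/- value lay just under the highest WT value. The difference was 0.15 (SE 0.071), or 1.11-fold, with an unadjusted p of 0.0710 and an adjusted p of 0.993 in limma. All 3 of its probe sets gave 0.15 to 0.16.

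The ribosomal proteins known from Diamond-Blackfan anemia and related disease were led by Rps19, the gene most often mutated in that anemia. It had 12.73, 12.76 and 12.37 in WT and 12.97, 12.83 and 12.65 in Lxn-/-. The values overlapped, with WT replicate 3 well below the others, and the difference of 0.20 (SE 0.13) was 0.072 without that array. Rps7, another gene of this anemia, had 13.23, 13.09 and 13.02 in WT and 13.33, 13.22 and 13.13 in Lxn-/-. Both genotypes spread over a similar range and overlapped, with a difference of 0.11 (SE 0.083). Rps10, also a gene of this anemia, had 13.29, 13.19 and 13.18 in WT and 13.30, 13.20 and 13.23 in Lxn-/-, a difference of 0.024 (SE 0.067). Rps14, whose loss of 1 copy underlies the anemia of the 5q- syndrome, had 12.63, 12.68 and 12.52 in WT and 12.73, 12.57 and 12.70 in Lxn-/-, a difference of 0.059 (SE 0.076) that was 0.015 without WT replicate 3, 0.028 without Lxn-/- replicate 1 and 0.11 without Lxn-/- replicate 2. That probe set is numbered among genes of another chromosome, and the one numbered among genes of its own gave 0.15 (SE 0.079).

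Rps12, Rps25 and Rps21 had differences near that of Rps19, and WT replicate 3 was the lowest array for each. Rps12 had 12.54, 12.48 and 12.25 in WT and 12.51, 12.71 and 12.55 in Lxn-/-, with a difference of 0.16 (SE 0.096) and 0.077 without WT replicate 3. Its 14 probe sets gave 0.12 to 0.18. Rps25, which viral internal ribosome entry sites need, had 12.42, 12.16 and 11.83 in WT and 12.46, 12.25 and 12.19 in Lxn-/-. Its SD over 6 arrays, 0.23, was the largest of all members, and its difference of 0.16 (SE 0.15) was 0.0057 without WT replicate 3. Rps21 had 10.85, 11.17 and 10.83 in WT and 11.04, 11.34 and 11.02 in Lxn-/-, with replicate 2 high in both genotypes and a difference of 0.18 (SE 0.12). That became 0.29 without WT replicate 2 and 0.081 without Lxn-/- replicate 2.

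Rps6, the substrate of the S6 kinases downstream of mTOR, had 14.05, 13.97 and 14.04 in WT and 14.12, 14.05 and 14.05 in Lxn-/-. The lowest Lxn-/- value, 14.05, lay within the WT range, and the difference was 0.053 (SE 0.063). Only 3 small-subunit genes were lower in Lxn-/-. The paralog gene Rps4l had 8.83, 9.03 and 8.95 in WT and 8.95, 8.85 and 8.76 in Lxn-/-, with overlap and a difference of -0.084 (SE 0.082). Rps15 had 13.63, 13.62 and 13.58 in WT and 13.64, 13.54 and 13.56 in Lxn-/-, a difference of -0.032 (SE 0.063), and its probe set numbered among genes of its own chromosome gave -0.093 (SE 0.071). Rps2 had 13.73, 13.78 and 13.82 in WT and 13.73, 13.76 and 13.77 in Lxn-/-, a difference of -0.026 (SE 0.061). The genotypes overlapped for both. The sign of Rps2 depended on the probe set, with 0.016 for the mean of its 3 probe sets. The other small-subunit genes, Rps3, Rps9, Rps15a, Rps18, Rps20, Rps28 and Rps29, lay between 0.0088 and 0.11.

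In the large subunit, Rpl14 had the highest difference of all members, and its arrays also spread widely. It had 10.14, 9.83 and 9.80 in WT and 10.36, 10.16 and 9.90 in Lxn-/-, a difference of 0.22 (SE 0.14). The genotypes overlapped, and the difference ranged from 0.11 without Lxn-/- replicate 1 to 0.34 without Lxn-/- replicate 3.

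The members whose genotypes did not overlap had small differences, all in the large subunit. Rpl5, which with Rpl11 and 5S ribosomal RNA can bind Mdm2 and thereby stabilize p53, had 13.15, 13.20 and 13.22 in WT and 13.24, 13.33 and 13.27 in Lxn-/-, a difference of 0.091 (SE 0.063). All 5 of its probe sets lay between 0.082 and 0.10. Rpl9 had 13.14, 13.10 and 13.02 in WT and 13.19, 13.16 and 13.18 in Lxn-/-, a difference of 0.094 (SE 0.064). Its probe set is numbered among genes of another chromosome, and the one numbered among genes of its own gave 0.075 (SE 0.064). The gap between the nearest values of the genotypes was small for both genes. Rpl34 and Rpl4, named here after their values were seen, completed the 4. Rpl34 had 11.39, 11.52 and 11.48 in WT and 11.58, 11.54 and 11.53 in Lxn-/-, a difference of 0.086 (SE 0.066). For Rpl4 the WT values were 12.70, 12.76 and 12.74 and the Lxn-/- values 12.67, 12.67 and 12.69, a difference of -0.055 (SE 0.061). For each of them the exact two-sided permutation p was 0.1, the smallest that 3 arrays against 3 can give.

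The stalk of the large subunit recruits elongation factors, and its genes showed no common direction. Rplp0, which anchors the stalk, had 13.92, 14.02 and 14.04 in WT and 13.96, 13.95 and 14.04 in Lxn-/-, a difference of -0.013 (SE 0.068). Rplp1 had 13.72, 13.81 and 13.78 in WT and 13.66, 13.70 and 13.77 in Lxn-/-, a difference of -0.062 (SE 0.066). Rplp0 and Rplp1 overlapped between genotypes. Rplp2, with Rplp1 the acidic part of the stalk, had 8.36, 8.42 and 8.28 in WT and 8.26, 8.50 and 8.39 in Lxn-/-, a difference of 0.030 (SE 0.082). Rpl12, which sits at the base of the stalk, had 9.95, 9.83 and 9.81 in WT and 9.98, 10.00 and 9.91 in Lxn-/-. Its lowest Lxn-/- value lay below WT replicate 1 only, and the difference was 0.097 (SE 0.069).

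Besides Rplp1, the lower large-subunit genes of lowest p were Rpl10l, Rpl27a and Rpl22. Rpl27a had 12.69, 12.63 and 12.72 in WT and 12.63, 12.58 and 12.59 in Lxn-/-, a difference of -0.078 (SE 0.063). Of its 9 probe sets the smallest difference in size was -0.012, at the probe set numbered among genes of its own chromosome. Rpl22, an RNA-binding protein that T cell development requires, had 10.67, 10.67 and 10.78 in WT and 10.69, 10.65 and 10.57 in Lxn-/-, a difference of -0.068 (SE 0.069). All other large-subunit genes not named here lay between -0.051 and 0.096.

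X-linked members had small differences. Rpl10, which joins the subunit late in its maturation, had 13.81, 13.77 and 13.93 in WT and 13.73, 13.85 and 13.83 in Lxn-/-, a difference of -0.035 (SE 0.073). Rpl36a had 12.80, 12.77 and 12.79 in WT and 12.73, 12.77 and 12.79 in Lxn-/-, a difference of -0.022 (SE 0.060). Rps4x had 13.10, 13.03 and 12.97 in WT and 13.10, 13.02 and 13.05 in Lxn-/-, a difference of 0.021 (SE 0.067). All of them overlapped between genotypes. The probe sets of Rpl10 and Rps4x are numbered among genes of other chromosomes. Those numbered among genes of the X chromosome gave -0.042 (SE 0.076) for Rpl10 and 0.0028 (SE 0.068) for Rps4x. Rpl41, the shortest ribosomal protein, had 13.33, 13.23 and 13.21 in WT and 13.25, 13.29 and 13.24 in Lxn-/-, a difference of 0.0059 (SE 0.065).

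The paralogs Rpl10l, Rpl3l and Rpl39l, of restricted expression, were dim, whereas Rps4l, described above, and Rps27l were above the receptor percentile. Rpl10l, the autosomal copy of Rpl10 used in the testis, had 6.75, 6.78 and 7.20 in WT and 6.60, 6.59 and 6.91 in Lxn-/-, with replicate 3 high in both genotypes. Its difference was -0.21 (SE 0.14), the lowest of all members, at a signal under the receptor percentile. Rpl3l, the form of heart and skeletal muscle, had 6.36, 6.50 and 6.45 in WT and 6.56, 6.47 and 6.37 in Lxn-/-, a difference of 0.027 (SE 0.076). The testis form Rpl39l had 4.98, 4.91 and 5.24 in WT and 5.07, 5.10 and 5.02 in Lxn-/-, a difference of 0.020 (SE 0.093). Both were under that percentile too. Rps27l, a paralog of Rps27 that p53 induces, was well above it, with 11.17, 11.07 and 11.11 in WT and 11.19, 11.34 and 10.99 in Lxn-/-, a difference of 0.060 (SE 0.095).

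Many probe sets that carry a member's symbol appear to stand at other loci. Probe set numbers of this array follow the chromosomes. For each probe set the most frequent RefSeq chromosome among its 10 nearest named neighbours in number was taken. Of 20921 other named probe sets, 97.5% had the chromosome of their own gene as this most frequent one. This held for 59 of the 210 member probe sets (28.1%) and for 29 of the 58 brightest ones. Processed pseudogenes of ribosomal protein genes are frequent in mammalian genomes, and near-identical copies cannot be told apart by hybridization, so a value under a member's symbol may include signal from several copies. A probe set numbered among genes of its own chromosome existed for 54 of the 58 genes. For 25 of these it was not the brightest one, and its difference had the same sign as that of the brightest for 24, the exception being Rps2 (0.047 against -0.026). The 25 include Rps6, Rps7, Rps10, Rps12 and Rps25, described above by their brightest probe sets. At the probe set of the own chromosome these genes had differences of 0.054, 0.092, 0.0074, 0.12 and 0.17. Over those 54 genes 40 were higher in Lxn-/-, with medians of 0.027 in the large and 0.054 in the small subunit. Over the 38 genes with several probe sets, the differences of a gene's probe sets spanned a median of 0.036 and at most 0.091, and all probe sets of a gene shared a sign for 31. Rpl7, Rpl7a, Rpl10a, Rpl21, Rpl23a, Rps2 and Rps29 had probe sets of both signs. Probe sets of 1 gene can share probes and are not independent.

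**Figure D4:**
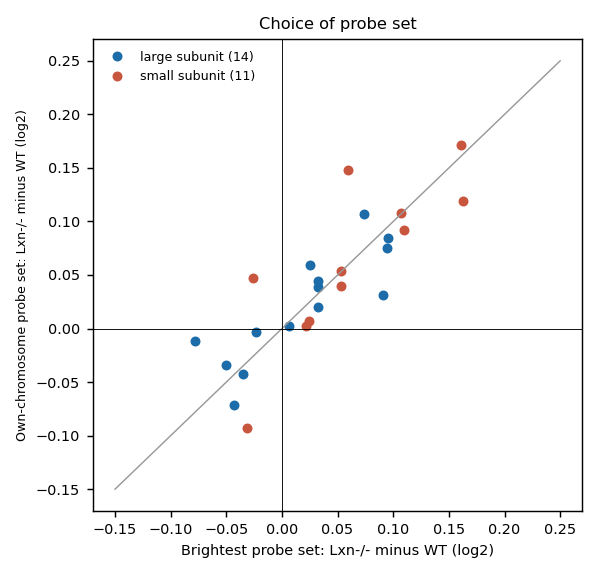
For the 25 genes where they differ, the difference in log2 units from the brightest probe set (x axis) is set against that from the brightest probe set numbered among genes of the gene's own chromosome (y axis). Points lie near the line of equality, and 24 of 25 have the same sign on both axes.

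Other genes of the ribosome and of translation did not pass the test either, with 0 at an adjusted p of 0.05 in limma in each list. Rpsa and Fau, which encode ribosomal proteins but fall outside the name rule, differed by 0.031 (SE 0.064) and -0.0017 (SE 0.061). Of 66 ribosome biogenesis genes, 29 were higher in Lxn-/- and the median was -0.016. Ebna1bp2 and Rrp9, factors of ribosomal RNA processing, had the lowest p, at -0.12 (SE 0.076) and -0.16 (SE 0.11). Of 12 genes of RNA polymerase I, which transcribes ribosomal RNA, 5 were higher with a median of -0.010, and the subunit gene Polr1d differed by -0.15 (SE 0.072) and Taf1d by 0.12 (SE 0.092). Of 36 genes of translation, most of them initiation and elongation factors, 14 were higher with a median of -0.026. Their mRNAs in part share the TOP tract. The 36 also held Etf1, Gspt1, Abce1, Pabpc1, Tpt1, Naca, Btf3 and Eef2k. The initiation factor 3 subunit genes Eif3h and Eif3k differed by 0.12 (SE 0.080) and -0.088 (SE 0.062).

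Of 25 genes listed for the route from mTOR to the S6 kinases, 10 were higher in Lxn-/- (40%, against 44% of all genes). Their median was -0.040, against -0.013 for all genes. Beside genes of that route the list held Myc, Mycn and Max, at -0.088, -0.18 and -0.12. Ddit4, a stress-induced inhibitor of mTORC1, had 9.23, 9.34 and 9.26 in WT and 9.40, 9.40 and 9.49 in Lxn-/-, without overlap. Its difference was 0.16 (SE 0.066), with an unadjusted p of 0.0462 and an adjusted p of 0.993 in limma. It was the 1 gene of the 25 at an unadjusted p under 0.05, where 3.76% of all genes had one (1.28% higher in Lxn-/-). Of the 25 it was also the 1 without overlap (4%, against 3.3% of all genes higher and 5.49% lower). The translation repressor gene Eif4ebp2 had 11.69, 11.82 and 11.92 in WT and 11.46, 11.76 and 11.57 in Lxn-/-, a difference of -0.21 (SE 0.097), with overlap. Of 6 kinase genes with Rps6k names 4 were higher, with a median of 0.027. Rps6ka3 and Rps6ka6, which encode kinases of the RSK family, differed by 0.13 (SE 0.085) and -0.069 (SE 0.071), the second at a signal under the receptor percentile.

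Mitochondrial ribosomal proteins, which build the separate ribosome of mitochondria, had a median on the other side of 0. Of 77 genes 24 were higher in Lxn-/- (31.2%, against 44% of all genes), with a median of -0.043, and 0 passed an adjusted p of 0.05 in limma. At an unadjusted p under 0.05 there was 1 of the 77, where 3.76% of all genes had one (2.47% lower in Lxn-/-). It was Mrpl44, with -0.24 (SE 0.091), and Mrps24 followed with -0.20 (SE 0.087). Groups did not overlap for 2 genes higher (2.60%, against 3.3% of all genes) and 9 lower (11.7%, against 5.49%). The mean of the list lay 0.11 below its mean of 6 arrays in Lxn-/- replicate 3, and without that array 40 of 77 genes were higher and the median was 0.0026. The median was -0.016 without WT replicate 3 and -0.027 without WT replicate 2, and -0.026 with array weights. The difference between cytosolic and mitochondrial lists was not tested.

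**Figure D5:**
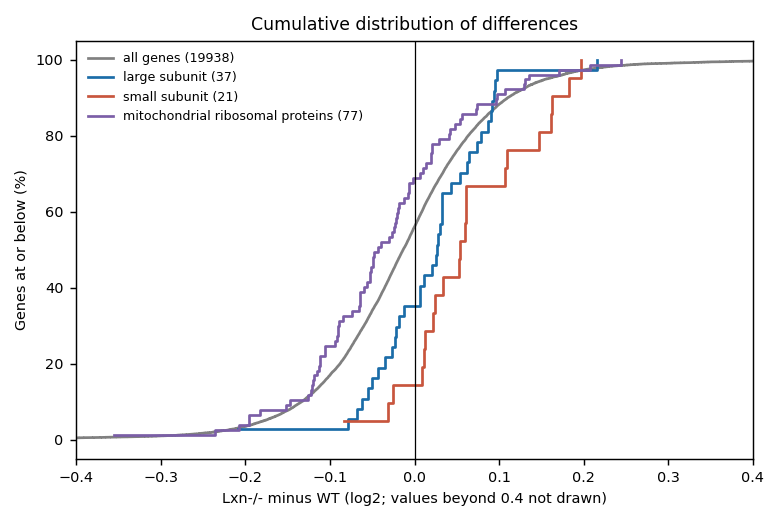
Cumulative share of genes (y axis, percent) at or below each difference, Lxn-/- minus WT in log2 units (x axis), for all 19938 genes, 37 large-subunit, 21 small-subunit and 77 mitochondrial ribosomal protein genes. The small-subunit curve lies farthest right, with a median of 0.053, and the mitochondrial curve farthest left, with a median of -0.043.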

How the data were processed

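The deposited table held log2 values of 35557 probe sets on 6 arrays, normalized by the authors with RMA. The submitters' processing notes name RMA and Partek 6.0, and a genome build is not given there. GEO's platform annotation named 21789 probe sets with 1 gene and 1621 with several, and left 12147 unnamed here. Entrez identifiers in RefSeq changed 0 symbols.

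Genotypes were compared over all 23410 named probe sets with limma 3.58.1 in R 4.3.3 (lmFit and eBayes, no covariates, two-sided, Benjamini-Hochberg adjustment, threshold 0.05), the method the design text names, and the step was tested on simulated data. Medians and counts over lists carry no test. The members and lists were chosen with earlier results of these data known. Genes named were those fixed by role, the 4 of lowest p per subunit and direction, and the 3 with the largest SD over 6 arrays. From each other list apart from the cell markers up to 2 genes of lowest p were named. The exception was Fau, named in place of Rpl7l1 among ribosomal proteins outside the name rule. The alternatives were other normalizations, array weights, a variance trend, probe set choices, omission of dim, duplicated or paralog members, single arrays left out and a replicate block. The number of arrays limits the precision.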

Additional observations from a re-analysis of the deposited data

How the results depend on the processing

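An adjusted p of 0.05 was passed by 0 probe sets under every alternative run, and among the 31 members named with values in every array the lowest adjusted p over 14 alternatives was 0.63. The count of members higher in Lxn-/- ran from 36 to 43 of 58 over normalizations, array weights and single arrays left out. Members with an unadjusted p under 0.05 in limma numbered 1 with array weights and 0 to 2 with single arrays left out. The share of all genes is not given for these settings, nor for the replicate block below. These counts are therefore not a result about the members. Members without overlap numbered 7 to 23 with single arrays left out, where fewer values are compared. The share of all genes without overlap in these fits is not given here, so no excess among members can be read from them. The large-subunit median ran from 0.0052 to 0.032 with single arrays left out. Same-numbered WT and Lxn-/- arrays deviated together for number 1 but not for 2 and 3 (r of deviations 0.36, -0.11 and -0.12 over genes), so the numbers were not taken to pair the arrays, and with a replicate block 4 members had an unadjusted p under 0.05. Over the alternatives 21 of these 31 members kept their sign, including 14 of 15 of lowest p, and the sign changed most often for Rpl41, under 5 of 14. Rpl34 and Rpl4 were added to these runs after their values were seen. A probe set chosen by its neighbours in number was added after the data were seen, as was the omission of dim, duplicated and paralog members together, which left 36 of 50 higher. Apart from the values given here, the counts and medians over members stayed within 1.5 times for counts and within 1 SD between arrays for medians. Differences under the median interval half-width of 0.17 could not be resolved for a typical member.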
